A study of Homo sapiens with 6 samples.

Results

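The hypoxia factors and targets described here are 10 genes of T24 bladder carcinoma cells: the oxygen-regulated subunits HIF1A and EPAS1, the hydroxylases EGLN1 and EGLN3, and the targets CA9, BNIP3, ADM, STC2, ANGPTL4 and NDRG1. They were taken by symbol from a table of 58825 genes, and all 10 were found. T24 is an established human line, and RNA was sequenced from 3 libraries with the control hairpin shNC-1 (genotype label WT), called controls below, and 3 with shDLGAP5-1, called knockdown libraries. The DLGAP5 protein acts on microtubules of the mitotic spindle, and the title of the series concerns a circuit between it and the transcription factor E2F1. Each group rests on 1 hairpin, all cells were grown in serum-containing medium, and the labels name no low-oxygen treatment.

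Cells sense oxygen through the alpha subunits of hypoxia-inducible factor (HIF). With oxygen present, EGLN prolyl hydroxylases modify these subunits, the VHL ubiquitin ligase binds the modified form, and the proteasome destroys it. When oxygen falls, the alpha subunits persist, pair with ARNT and switch on genes of glycolysis, pH control, mitophagy and vessel growth. This control acts mainly on the protein, so transcript levels of HIF1A and EPAS1 do not report how active the factors are.

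HIF binds a short core, ACGTG or GCGTG, in DNA near its targets. Upstream sequence is shown for EPAS1, BNIP3 and ANGPTL4, which passed the test below and have a core outside annotated exons in the 250 bases before the RefSeq start (RefSeq, GRCh38.p14). The bases shown stop where an exon of GENCODE release 29 begins, and capitals mark the cores on either strand. The EPAS1 and ANGPTL4 stretches lie inside the longer gene models of the table, between annotated exons, and that of BNIP3 lies just outside its gene.
EPAS1, chr2:46297157-46297401, plus strand: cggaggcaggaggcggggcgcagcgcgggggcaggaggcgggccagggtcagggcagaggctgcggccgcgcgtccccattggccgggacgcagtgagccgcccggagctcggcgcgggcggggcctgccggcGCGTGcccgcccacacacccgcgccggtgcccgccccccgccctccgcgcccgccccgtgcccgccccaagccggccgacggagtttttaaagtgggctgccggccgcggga
BNIP3, chr10:131982014-131982173, minus strand: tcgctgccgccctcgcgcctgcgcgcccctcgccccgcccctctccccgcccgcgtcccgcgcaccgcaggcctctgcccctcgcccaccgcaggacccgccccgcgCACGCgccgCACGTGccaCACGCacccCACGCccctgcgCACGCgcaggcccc
ANGPTL4, chr19:8363905-8364150, plus strand: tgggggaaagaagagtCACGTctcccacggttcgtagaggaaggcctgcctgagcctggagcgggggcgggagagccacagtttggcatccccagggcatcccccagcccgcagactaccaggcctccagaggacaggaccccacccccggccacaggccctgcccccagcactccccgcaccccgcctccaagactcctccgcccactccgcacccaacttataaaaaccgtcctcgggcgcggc
BNIP3 had 6 matches, 2 of which overlap as a palindrome, and EPAS1 and ANGPTL4 had 1 each. Of 35116 upstream windows of 250 bases in the same table, 43.2% held at least 1 core and 1.36% held 5 or more. A window was found for 9 of the 10 genes, and 8 of these held a core, with 3 in STC2, 1 each in HIF1A, EGLN1, CA9 and ADM, and none of these letters in EGLN3. A match describes letters and is not a binding site.

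Values are FPKM, a length-corrected and depth-corrected fragment count, and fold changes are log2 differences of FPKM + 1, knockdown minus control, which understate the change of low genes. A gene passed at an adjusted p under 0.05 from limma, over 12714 genes. Estimated depth was 21600000 to 27600000 fragments in controls and 13700000 to 18300000 in knockdown libraries. DLGAP5 itself read 29.7 to 33 FPKM in controls and 4.0 to 7.51 FPKM under its hairpin. The epithelial keratins KRT7, KRT8 and KRT18 read 237 to 855 FPKM. Of the other epithelial markers listed, KRT19 read 17.7 to 20.9 FPKM in controls and 10.6 to 11.1 FPKM in knockdown libraries, where it was called lower, EPCAM 0.765 to 1.18 FPKM, and KRT5 at most 3.95 FPKM, with 0 in all knockdown libraries. The 8 urothelial differentiation genes summed to 3.99 to 8.15 FPKM, with KRT20 listed at 0 throughout. Knockdown replicate 3 stood apart: 16 white blood cell genes summed to 840.5 FPKM there, with LYZ at 686 FPKM, against 30.3 and 21.4 FPKM in knockdown replicates 1 and 2 and 14.4 to 37.4 FPKM in controls. LYZ also read 21.1 FPKM in control replicate 3 and 11.9 FPKM in knockdown replicate 1, and at most 2.48 FPKM in the remaining libraries. CD3E, CD3D and MS4A1 of that list were at 0 in all libraries. CD74 of that list read 2.51 to 3.0 FPKM in controls and 10.5 to 14.8 FPKM in knockdown libraries, where it was called higher. CD14, too low to be tested, read 0.128 to 0.232 and 0.468 to 0.536 FPKM. Endothelial genes (5) summed to 0.0419 to 0.407 FPKM in controls and to 0.265, 0.129 and 8.46 FPKM in knockdown replicates 1 to 3. PECAM1 alone read 8.45 FPKM in knockdown replicate 3. Fibroblast genes (6) summed to 1.45 to 6.75 FPKM in controls and 2.98 to 3.15 FPKM in knockdown libraries, and of 7 red cell genes 5 were at 0 throughout. Member results are therefore also given without knockdown replicate 3, which leaves the libraries with smaller LYZ readings in the fit. The labels do not say that libraries are separate cultures, so p-values cover the spread among these samples alone, and that spread may be technical.

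EPAS1 rose in knockdown libraries, while HIF1A did not pass the test. EPAS1 encodes HIF-2 alpha, the more tissue-restricted subunit (chromosome 2, 46293667 to 46386697, plus strand, GRCh38). Control replicates 1 to 3 read 15.3, 14.5 and 11.8 FPKM, and knockdown replicates 1 to 3 read 20.7, 26.4 and 26.5 FPKM. All knockdown libraries lay above all controls. The mean went from 13.9 ± 1.82 to 24.5 ± 3.3 FPKM (SD, n = 3 each), 76.7% higher, and limma put the log2 change at 0.78, standard error 0.15, adjusted p = 0.0109. By the same test 15.3% of all genes rose and 9.52% fell, so 61.6% of calls were higher, a share of 48.1% with columns scaled to equal sums, 50.8% after quantile normalization and 50.04% after a length trend was taken out. Leaving out knockdown replicate 3 gave EPAS1 0.72 (limma adjusted p = 0.0267). In bulk RNA, more cells with a transcript and more of it per cell cannot be told apart.

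HIF1A encodes HIF-1 alpha, present in most cells (chromosome 14, 61695513 to 61748259, plus strand). Its transcript read higher than that of EPAS1 in every library. Control replicates 1 to 3 read 36.8, 52.1 and 41.9 FPKM, and knockdown replicates 1 to 3 read 38.4, 41.8 and 47.6 FPKM. The groups overlapped, and the highest value was in a control. For HIF1A limma put the log2 change at −0.023, standard error 0.15, adjusted p = 0.929, with a 95% interval of the ratio from 0.768 to 1.26; the sign turned after quantile normalization (0.019). The antisense gene HIF1A-AS2 inside it averaged 0.162 and 0.0478 FPKM in the groups.

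Because FPKM is corrected for length, the transcripts of both subunits can be set on one scale. EPAS1 made up 29.4%, 21.8% and 22% of the summed FPKM of HIF1A and EPAS1 in control replicates 1 to 3, and 35%, 38.6% and 35.7% in knockdown replicates 1 to 3. Every knockdown library had the larger share, on average 36.5 ± 1.92% against 24.4 ± 4.32% (SD, n = 3 each). The log2 ratio of EPAS1 to HIF1A differed by 0.80 (exact two-sided permutation p = 0.1, the smallest that 3 against 3 libraries allow), and by 0.82 without knockdown replicate 3.

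**Figure D1:**
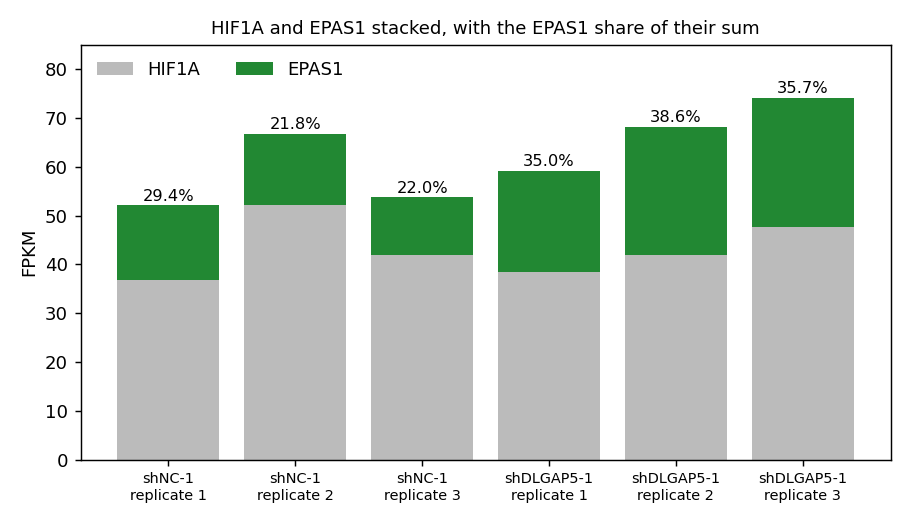
Bars give FPKM per library, HIF1A in grey and EPAS1 stacked in green, with the EPAS1 share of the sum over each bar. The share is 21.8% to 29.4% in the 3 controls and 35% to 38.6% in the 3 knockdown libraries.

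Neither hydroxylase gave a call. EGLN1, the main prolyl hydroxylase that marks HIF alpha for destruction (chromosome 1, 231363751 to 231425044, minus strand), read 13.9, 12.9 and 11.7 FPKM in the 3 controls and 9.41, 10.5 and 12 FPKM in the 3 knockdown libraries. Only the highest knockdown library overlapped the controls. For EGLN1 limma put the log2 change at −0.25, standard error 0.13, adjusted p = 0.19, with a ratio interval of 0.684 to 1.03. EGLN3, a related hydroxylase that HIF itself induces, was nearly undetected, at 0.261, 0.60 and 0.122 FPKM in controls and 0.0773, 0.226 and 0.166 FPKM in knockdown libraries. These values stand for roughly 3.01 to 47.2 fragments per library, so EGLN3 was under the filter and not tested by limma; the exact two-sided permutation p was 0.4. EGLN3 made up 0.815% to 4.44% of EGLN1 plus EGLN3, and the log2 ratio differed by 0.066 (exact two-sided permutation p = 0.8), with a sign that changes between settings. The EGLN3 model (chromosome 14, 33924231 to 34462774, minus strand) spans SPTSSA, which averaged 10.3 and 14.1 FPKM, and reads could be shared.

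Other parts of the oxygen-sensing machinery moved both ways. Of 18 listed subunits, hydroxylases, VHL ligase parts and coactivators, the members among them, 15 were tested. Of these 2 rose, EPAS1 among them, and 2 fell. The calls were 26.7% of those tested, beside 24.8% called among all genes. Apart from the members, 12 were tested, of which 1 rose and 2 fell. The list median was 0.056, beside 0.034 for all genes. With equal column sums it was −0.054, beside −0.059 for all genes. Elongin C (ELOC), an adaptor of the VHL ligase, fell from 82.3 ± 4.04 to 41.8 ± 5.89 FPKM (SD, n = 3 each; limma adjusted p = 0.00303). CUL2, the scaffold of that ligase, fell from 14 ± 0.745 to 10.2 ± 1.0 FPKM (limma adjusted p = 0.0345). VHL itself read 12.6 ± 0.392 and 16.2 ± 2.02 FPKM and did not pass (limma adjusted p = 0.0863). P4HTM, a membrane-bound prolyl hydroxylase, rose from 5.49 ± 0.73 to 10.7 ± 1.32 FPKM (limma adjusted p = 0.00742); its gene overlaps WDR6 (14.9 and 10.2 FPKM on average) and reads can be shared. CITED2, which competes with HIF for coactivators, read 8.94 ± 3.36 and 13.6 ± 1.48 FPKM (limma adjusted p = 0.0955).

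**Figure D2:**
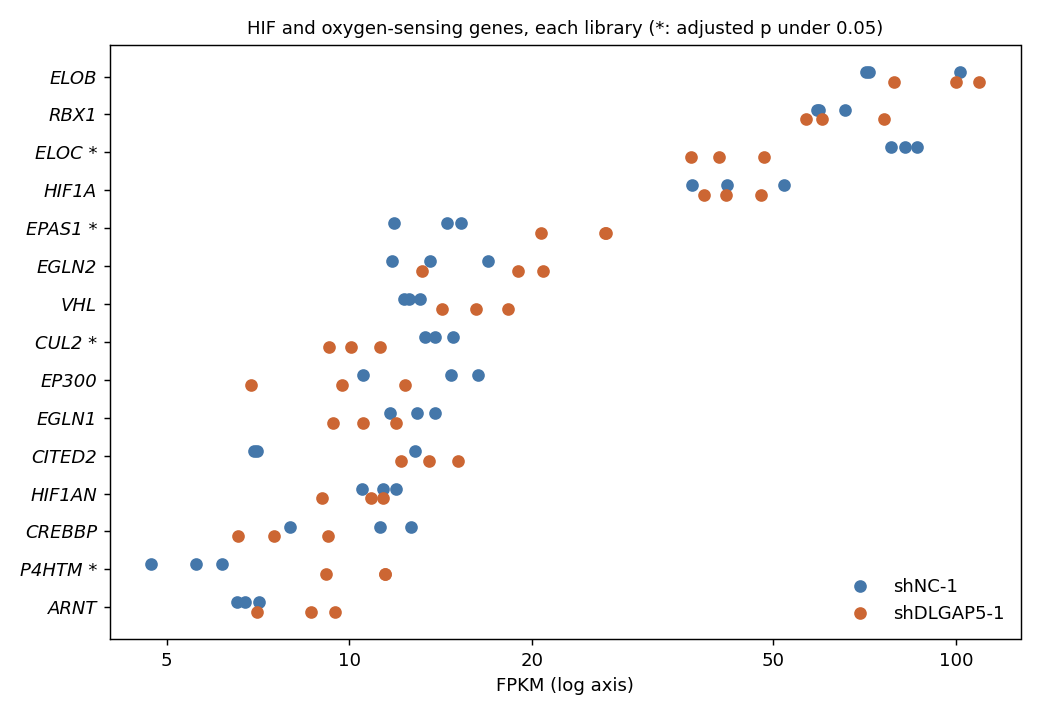
Each point is 1 library, with FPKM on a log axis; genes are ordered by mean level, blue for shNC-1 and orange for shDLGAP5-1. ELOC and CUL2 lie lower, and EPAS1 and P4HTM higher, in the knockdown libraries.

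STC2, ANGPTL4 and BNIP3 fell. STC2 encodes stanniocalcin 2, a secreted glycoprotein induced by HIF and by unfolded protein stress (chromosome 5, 173314713 to 173329503, minus strand). It was the most abundant target among the members, at 118, 113 and 113 FPKM in the 3 controls and 44.8, 54.6 and 52.6 FPKM in the 3 knockdown libraries. The groups lay far apart, and the mean went from 115 ± 2.59 to 50.6 ± 5.19 FPKM (SD, n = 3 each), 55.8% lower. For STC2 limma put the log2 change at −1.17, standard error 0.11, adjusted p = 0.00113, and at −1.20 without knockdown replicate 3 (adjusted p = 0.00323). Its paralog STC1, at a far lower level, fell from 1.78 ± 0.187 to 1.1 ± 0.0602 FPKM (limma adjusted p = 0.0376).

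ANGPTL4, a secreted inhibitor of lipoprotein lipase, is induced by HIF and by the PPAR fatty acid receptors (chromosome 19, 8363289 to 8374370, plus strand). Control replicates 1 to 3 read 5.79, 3.88 and 4.2 FPKM, and knockdown replicates 1 to 3 read 1.36, 2.0 and 1.12 FPKM. No knockdown library reached the lowest control. The mean was 67.8% lower, and limma put the log2 change at −1.18, standard error 0.19, adjusted p = 0.00614; it was −1.07 without knockdown replicate 3 (adjusted p = 0.0145). Of 10 tested PPAR receptors and targets, limma called 3 lower and 0 higher (3 lower and 1 higher at an unadjusted p under 0.05), with a median of −0.037. This share is close to the 24.8% called among all genes. The receptor PPARD fell from 16.1 ± 0.583 to 11.4 ± 1.7 FPKM and the lipid droplet coat protein PLIN2 from 14.4 ± 1.52 to 9.41 ± 0.387 FPKM (SD, n = 3 each). The fatty acid carrier FABP4 was called lower, at 1.61 ± 0.531 and 0.514 ± 0.125 FPKM. It reached 1 FPKM in controls only, so it entered the test through its higher group, which favors a lower call. With a filter of 5 FPKM, 7 genes of this list were tested and 2 were called, both lower. The partner receptors RXRA (19.6 ± 0.187 and 22.2 ± 2.2 FPKM) and RXRB (11.4 ± 0.494 and 14.7 ± 2.05 FPKM) did not pass. The PPAR count was 1 without any one control or without knockdown replicate 2. Over all genes those fits gave 1511, 1335, 1937 and 2056 calls, against 3155 with every library.

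BNIP3, a mitochondrial outer membrane protein that drives mitophagy (chromosome 10, 131966455 to 131982013, minus strand), read 40.6, 41.2 and 42.5 FPKM in the 3 controls and 32.3, 28.2 and 27.7 FPKM in the 3 knockdown libraries. The controls were tightly grouped, and all knockdown libraries lay below them. The mean was 29.1% lower; for BNIP3 limma put the log2 change at −0.48, standard error 0.10, adjusted p = 0.0156, and at −0.44 without knockdown replicate 3 (adjusted p = 0.0351). The call was lost without control replicate 1 (limma adjusted p = 0.0574), 2 (0.0684) or 3 (0.0516), with estimates of −0.55 to −0.44 over all fits without 1 library. The related mitophagy receptor BNIP3L read 29.4 to 34.2 FPKM in controls and 34.8 to 37 FPKM in knockdown libraries, and did not pass (limma adjusted p = 0.294).

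CA9, the membrane carbonic anhydrase used as a hypoxia marker, was under 1 FPKM in every library (chromosome 9, 35673918 to 35681159, plus strand). Control replicates 1 to 3 read 0.632, 0.973 and 0.602 FPKM, and knockdown replicates 1 to 3 read 0.0945, 0.457 and 0.327 FPKM. All knockdown libraries lay below all controls, but the values stand for roughly 22.1 to 43.5 fragments in controls and 2.09 to 10.2 in knockdown libraries. CA9 was under the filter; with no filter its limma adjusted p was 0.169, and the exact two-sided permutation p was 0.1, the smallest possible. It overlaps ARHGEF39 on the other strand (5.12 and 5.57 FPKM on average), and reads of the pair may be mixed. Its membrane-bound relative CA12 read 0.397 to 1.13 FPKM.

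NDRG1 and ADM each had a replicate far from the others of its group. NDRG1, a stress-induced cytoplasmic protein and hypoxia marker (chromosome 8, 133237171 to 133302022, minus strand), read 19.5, 68.5 and 29.8 FPKM in control replicates 1 to 3 and 13.1, 27.7 and 12.7 FPKM in knockdown replicates 1 to 3. Replicate 2 was the highest in each group, and knockdown replicate 2 lay within the range of the controls. For NDRG1 limma put the log2 change at −0.995, standard error 0.47, adjusted p = 0.168, with a ratio interval of 0.232 to 1.08, and at −0.51 without control replicate 2. ADM, the vasodilator peptide adrenomedullin (chromosome 11, 10305073 to 10307397, plus strand), was steady in controls at 10.3, 9.45 and 11 FPKM and read 8.12, 18.5 and 7.25 FPKM in knockdown replicates 1 to 3. Of the knockdown libraries, 1 lay above all controls and 2 below. For ADM limma put the log2 change at 0.021, standard error 0.31, adjusted p = 0.968, with a ratio interval of 0.612 to 1.68, and at −0.37 without knockdown replicate 2 (adjusted p = 0.107). The ADM receptor CALCRL read 0.374 to 1.13 FPKM, its partner RAMP2 at most 0.241 FPKM, and RAMP3 was listed at 0.

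**Figure D3:**
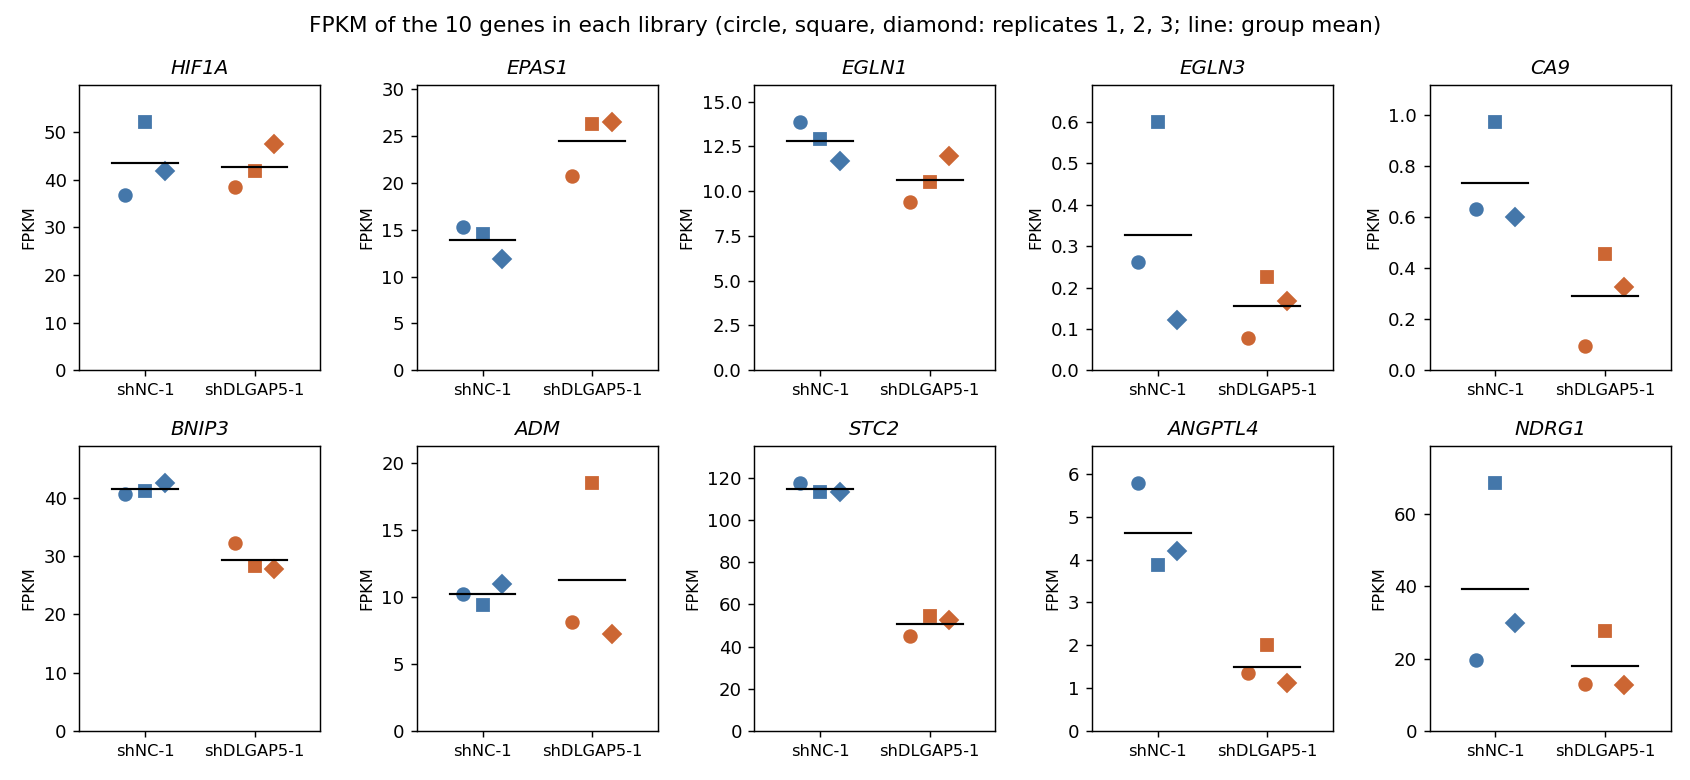
Each panel plots 1 gene on its own linear FPKM axis from 0; circles, squares and diamonds are replicates 1, 2 and 3, and lines are group means. EPAS1, STC2, ANGPTL4, BNIP3 and the barely detected CA9 separate the groups, and squares (replicate 2) are highest in both groups for NDRG1.

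Of the 10 genes, 8 were tested, 1 rose, 3 fell and 4 did not pass, where 15.3% of all tested genes rose, 9.52% fell and 24.8% did either. The 4 called genes were also those of the 8 whose groups did not overlap, 1 higher and 3 lower, where 25.6% of all tested genes were higher without overlap, 18.3% lower, and 43.9% either. The median log2 change of the 8 was −0.37, beside 0.034 over all genes. EPAS1 and STC2 kept their calls in all 16 other settings, and ANGPTL4 in the 15 that gave it a value. Of the genes with no call, leaving out knockdown replicate 3 gave log2 changes of −0.10 for HIF1A, −0.33 for EGLN1, 0.25 for ADM and −0.81 for NDRG1 (limma adjusted p = 0.668, 0.104, 0.573 and 0.31), and plain log2 differences of −0.45 for CA9 and −0.19 for EGLN3.

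**Figure D4:**
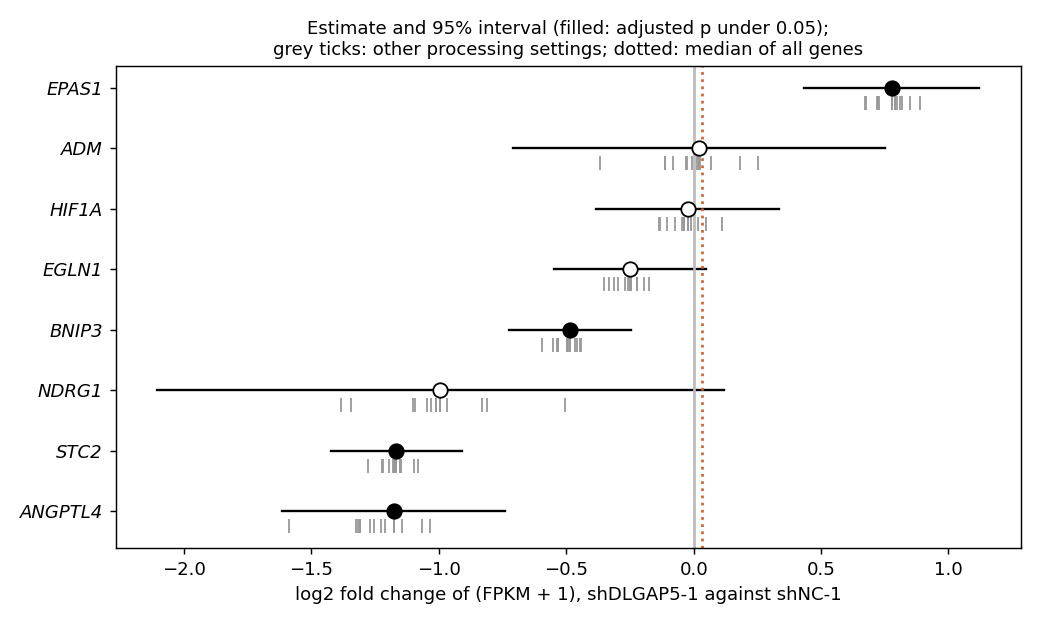
Points are log2 fold changes of FPKM + 1 with 95% intervals for the 8 tested genes, filled where the adjusted p was under 0.05; grey ticks are the other processing settings and the dotted line the median of all genes (0.034). The interval is widest for NDRG1 (−2.11 to 0.12).

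Among HIF targets of metabolism, more passed as lower than as higher. Of 29 listed genes, 27 were tested, ANGPTL4 among them; 12 fell and 3 rose, together 55.6% of those tested, beside 24.8% called among all genes (9.52% lower, 15.3% higher). The median log2 change was −0.33, beside 0.034 for all genes. Hexokinase HK2 fell from 10.3 ± 0.822 to 2.87 ± 0.72 FPKM (SD, n = 3 each; log2 change −1.56). PFKFB3, which makes an activator of phosphofructokinase, fell from 10.6 ± 0.712 to 4.12 ± 1.39 FPKM (log2 change −1.22). Phosphoglycerate kinase PGK1 fell from 193 ± 4.39 to 129 ± 3.86 FPKM and phosphoglycerate mutase PGAM1 from 473 ± 14.1 to 286 ± 40.6 FPKM; both have near-identical copies, so their reads are uncertain. NDUFA4L2, a mitochondrial protein and HIF target, rose from 1.04 ± 0.151 to 3.99 ± 0.351 FPKM (log2 change 1.29); it overlaps SHMT2 on the other strand (133 and 159.9 FPKM on average) and reads may be mixed. The 15 calls were 8 without control replicate 1, 6 without control replicate 2 and 15 without knockdown replicate 3. Over all genes the same fits gave 1511, 1335 and 3141 calls, against 3155 with every library.

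HIF targets of other kinds showed no common direction. Of 41 listed genes, 37 were tested, with ADM, BNIP3, EGLN1, NDRG1 and STC2 among them; 5 rose and 7 fell, 32.4% of those tested, beside 24.8% among all genes (15.3% higher, 9.52% lower), and the median was −0.099. BHLHE41, a transcriptional repressor of the circadian clock, rose from 1.83 ± 0.194 to 7.21 ± 0.274 FPKM (n = 3 each, ± SD), a log2 change of 1.54, and SSPN, which it overlaps, averaged 0.364 and 1.17 FPKM. EFNA1, a ligand of Eph receptors, rose from 5.33 ± 0.642 to 15.2 ± 1.07 FPKM (log2 change 1.36). The collagen lysyl hydroxylase PLOD2 fell from 102 ± 7.12 to 59 ± 1.38 FPKM, heme oxygenase HMOX1 from 45.6 ± 2.46 to 22.2 ± 5.5 FPKM and the dioxygenase JMJD6 from 28.9 ± 1.17 to 19.96 ± 1.54 FPKM. The 12 calls were 6 without any one control and 9 without knockdown replicate 3. Calls over all genes went from 3155 to 1511, 1335 and 1937 without control replicates 1, 2 and 3, and to 3141 without knockdown replicate 3. CXCR4, a HIF target also found on white blood cells, read 10.3 FPKM in knockdown replicate 3 and at most 0.258 FPKM elsewhere. Of 10 tested relatives and receptors of the members, limma called 20%, beside 24.8% among all genes. STC1 fell as above, and NDRG4 rose from 2.3 ± 0.711 to 4.16 ± 0.617 FPKM (limma adjusted p = 0.0434). CA2, CA13 and ARNT did not pass (limma adjusted p = 0.080, 0.106 and 0.188). Limma called 1 of these relatives without control replicate 3, knockdown replicate 1 or knockdown replicate 3, beside 1937, 2728 and 3141 calls over all genes. It called 0 without control replicate 1, control replicate 2 or knockdown replicate 2 (2, 2 and 5 at an unadjusted p under 0.05). Calls over all genes were then 1511, 1335 and 2056.

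**Figure D5:**
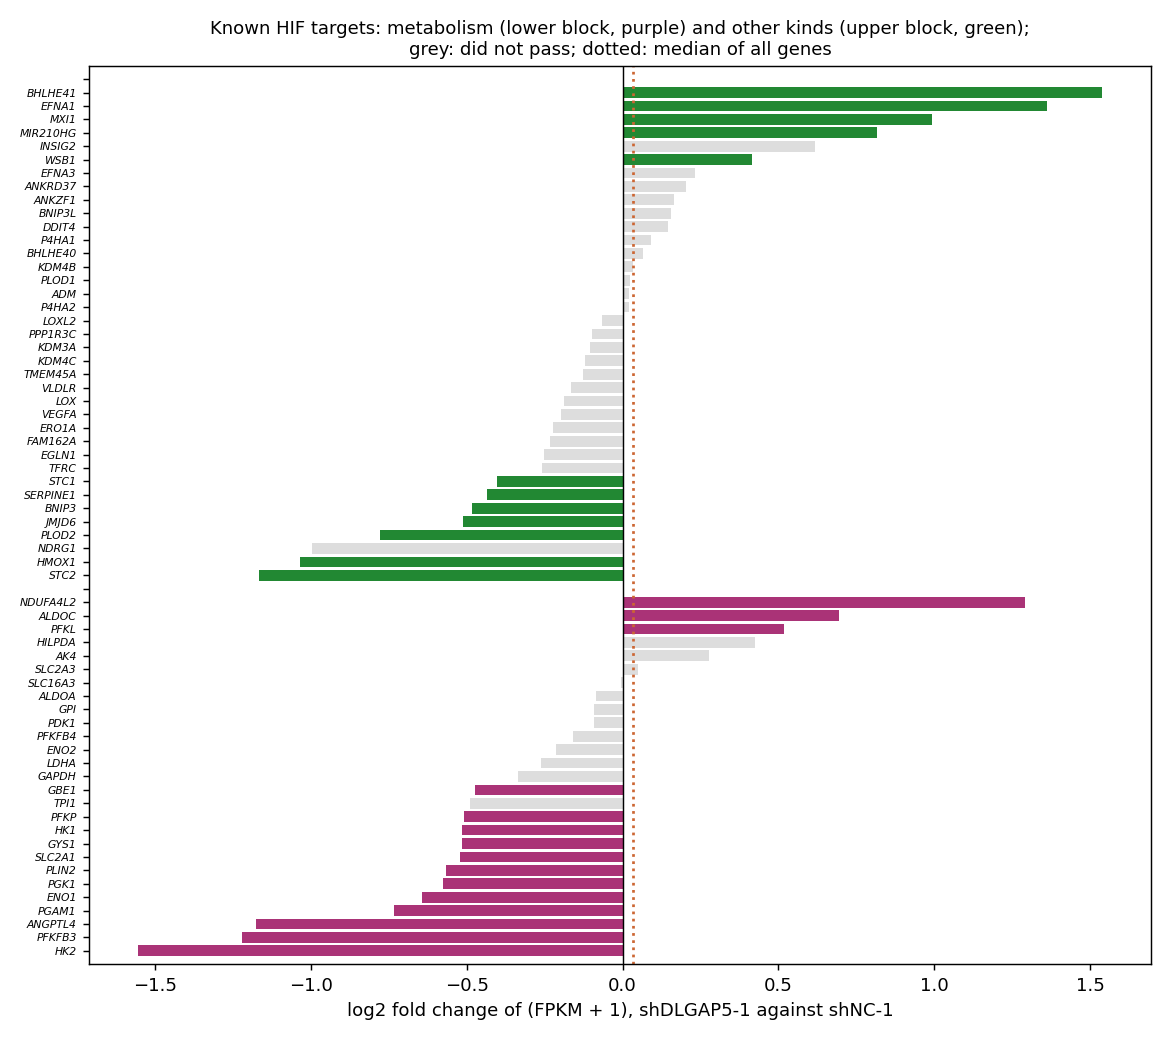
Bars give the log2 fold change of FPKM + 1 for tested HIF targets of metabolism (purple, lower block) and of other kinds (green, upper block), grey where a gene did not pass. Of the coloured bars, 12 of 15 in the lower block and 7 of 12 in the upper block point to lower values. Over all genes, 1211 of 3155 calls were lower. With equal column sums these counts were 12 of 14, 7 of 10 and 1382 of 2664.

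As a description, the genes whose log2(FPKM + 1) followed EPAS1 most closely over the 6 libraries were HECA, KCTD18 and HEG1, with Pearson r of 0.999, 0.998 and 0.996. For HIF1A they were REEP4, COPS7B and THUMPD3, at 0.968, 0.955 and 0.937. All points come from the same 6 libraries. COPS7B, for example, read 15.7 FPKM in control replicate 2, where HIF1A was highest, and 7.9 to 13.2 FPKM elsewhere.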

How the data were processed

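RNA of 3 shNC-1 and 3 shDLGAP5-1 libraries of T24 cells was sequenced, and the authors deposited 1 table of 58825 genes, here read as FPKM values. No unit stands in the header. Values have decimals, their sums differ (413001 to 487559) and low single-exon genes pile up in inverse proportion to length, from which depth was estimated. Neither aligner, quantifier nor use of strand is given in the sources used here. Coordinates are GRCh38: GENCODE release 29 holds 99.5% of the identifiers, 87.1% of those at identical positions. FPKM divides by a total, so abundant genes shift all others.

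Control columns were matched by name and number; the other 3 columns carry a construct number and were given to shDLGAP5-1, the only group left. On log2(FPKM + 1), limma 3.58.1 (R 4.3.3, trended variance, group as the only term, Benjamini-Hochberg) tested every gene reaching 1 FPKM in 3 or more libraries, a procedure tested on simulated data. Single values used exact permutation tests (SciPy 1.17.1). Named are the members and the 5 other genes of each of 5 pathway lists with the smallest p. The 3 genes most like HIF1A and EPAS1 are also named. BNIP3L, CA12, CALCRL, RAMP2, RAMP3, CXCR4, MYC, AK4, LDHA and overlapping genes were chosen after their values were seen. The members and lists were chosen with earlier results of these data known. Other settings were: pseudocount 0.1, filters of 0 and 5 FPKM, equal column sums, median-ratio and quantile scaling, a lowess length correction (span 0.3), a replicate block, a robust variance prior, and each library left out.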

Additional observations from a re-analysis of the deposited data

How the results depend on the processing

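The count of calls over all genes was 3155 as reported, 2071 with no filter, 1464 with a replicate block and 1335 to 3141 without 1 library. Against 15, 12, 2 and 3 calls for HIF targets of metabolism, HIF targets of other kinds, relatives of the members and the PPAR list, no filter gave 9, 7, 0 and 1 (limma; 4 relatives at an unadjusted p under 0.05). The replicate block gave 6, 7, 1 and 1, and fits without 1 library 6 to 15, 6 to 10, 0 to 1 and 1 to 4. The relatives gave 0 calls with a filter of 5 FPKM (limma; also 0 at an unadjusted p under 0.05) and 1 with equal column sums, quantile scaling or the replicate block plus length correction. The members gave 3 to 5 calls in every setting. ADM, never called, turned to −0.0796 with equal column sums, −0.025 under the median-ratio method and −0.00636 after quantile scaling. After length correction it was −0.11, block or not. The median of all genes was −0.059, −0.011, −0.018 and −0.00972 in the same order of settings. Without 1 library ADM ran from −0.37 to 0.25. HIF1A turned to 0.019 after quantile scaling and ran from −0.14 to 0.11 without 1 library. The EGLN3 to EGLN1 ratio turned to −0.35 with a pseudocount of 0.1 and −0.018 after length correction, and ran from −0.018 to 0.20 without 1 library. With a pseudocount of 0.1 ANGPTL4 was −1.59, CA9 −1.19 and EGLN3 −0.62. The causes were not tested.

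Over all tested genes, same-numbered libraries deviated from their group means with correlations of −0.155, 0.021 and −0.157. No library correlated best with its own number. These correlations are taken over all tested genes, so pairing that touches few genes could go unseen. With the replicate block NDRG1 was called (limma adjusted p = 0.0285, or 0.034 with length correction) and BNIP3 was not (0.0735). A filter of 5 FPKM leaves no value for ANGPTL4, and that filter, the block and the robust prior give none for CA9 and EGLN3, whose few fragments also limit what this depth can show.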

Other observations

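NDRG1 and MYC were high in replicate 2 of both groups. By a rule chosen after seeing the data (at least 2-fold above both other libraries of the group, with at least 5 FPKM), 32 genes stood out in control replicate 2 and 39 in knockdown replicate 2, with these 2 genes in both sets. The transcription factor MYC read 2.9, 29.5 and 3.44 FPKM in the 3 controls and 3.95, 32.3 and 4.35 FPKM in the 3 knockdown libraries (limma adjusted p = 0.879 between groups). For replicates 1 the counts were 31 and 52 with 3 genes shared, and for replicates 3 they were 53 and 113 with 4 shared, LYZ among them.

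CA9 and EGLN3 were also highest in replicate 2 of both groups, at very low levels. AK4, a mitochondrial kinase and HIF target, read 6.82 FPKM in control replicate 2 and 2.35 to 5.08 FPKM elsewhere. In knockdown replicates 1 to 3 AK4 was level, at 4.58, 5.08 and 4.92 FPKM. Not all HIF targets were high in control replicate 2: LDHA was lowest there, at 464 FPKM, and read 712 and 614 FPKM in control replicates 1 and 3. The highest control value fell in replicates 1, 2 and 3 for 4, 4 and 2 of the 10 members, and the highest knockdown value for 1, 6 and 3. This was not tested.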
